A study of Zea mays with 6 samples.

Results

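The 4 starch synthase transcripts described here were those of Wx1 (Zm00001d045462, granule-bound starch synthase), SSI (Zm00001d045261, starch synthase I), Su2 (Zm00001d037234, starch synthase IIa) and Du1 (Zm00001d000002, starch synthase III). They were picked by gene ID, and they are 4 of the 33051 genes listed for each library. All 4 were above the minimum for the test across genes, 1 FPKM averaged over all libraries, which left 20514 genes. FPKM scales the fragments of a gene by its length and by how many fragments were mapped in that library, so levels of different genes can be set side by side. Messenger RNA came from whole kernels of the maize inbred line KN5585, taken 10 days after pollination. The libraries fell into 3 labelled ZmSUS1 transgenic, all from 1 transgenic strain, and 3 labelled as its non-transgenic negative control, which shares the line and the age. Neither the promoter of the transgene nor any pooling of kernels is given in the sources used here. Libraries of a group are biological replicates per the series text.

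Starch synthases lengthen glucan chains by adding glucose from ADP-glucose. The granule-bound enzyme encoded by Wx1 makes amylose, the nearly linear glucan of the starch granule, and waxy mutants of maize have endosperm starch almost free of it. The soluble enzymes SSI, SSIIa and SSIII lengthen the branches of amylopectin: SSI acts mainly on short chains, SSIIa on intermediate chains and SSIII on longer ones. Mutants of sugary2 and dull1 have altered amylopectin, and all these enzymes draw on carbon that enters the kernel as sucrose.

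SUS1 (Zm00001d047253), the sucrose synthase that the transgene carries, was checked first. It had 155, 149 and 160 FPKM in the libraries labelled transgenic, against 214, 210 and 221 FPKM in those labelled control. Its level was thus lower in the libraries labelled transgenic (log2 fold change -0.47, limma adjusted p = 0.000759), whereas the series describes an overexpression. Groups are therefore named by their labels in every comparison, and each direction below rests on those labels. Summed FPKM lay between 1359751 and 1378937 per library. The labelled tissue was checked with 2 ranges of gene IDs given as alpha-zein clusters, storage proteins of the endosperm. Of the 18 IDs in these ranges 16 were listed, and 14 of them exceeded 100 FPKM in every library.

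Wx1 and Su2 were higher in the kernels labelled transgenic, whereas the levels of SSI and Du1 overlapped between the groups. Of the 4 starch synthases, 2 rose, 0 fell and 2 did not pass the test (limma, adjusted p under 0.05, over all genes tested; 0 were lower at an unadjusted p under 0.05 either). Over all 20514 genes, 2.88% rose, 16.2% fell and 19.0% passed in either direction. Among genes at a mean of 1000 to 10000 FPKM, the range that holds Wx1, 6 of 49 rose (12.2%) and 42.9% fell. These 6 include Wx1 itself and a second ID of identical values, described below. Among the 7725 genes from 10 to 100 FPKM, the range that holds Su2 and Du1, 3.12% rose and 22.5% fell. The range of 100 to 1000 FPKM, which holds SSI, had 29 of 618 (4.69%) higher and 32.5% lower. The median log2 fold change was 0.15 over the 4 starch synthases and -0.13 over all genes tested. With 4 members chosen by name, these values describe them and carry no test of the group.

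**Figure D1:**
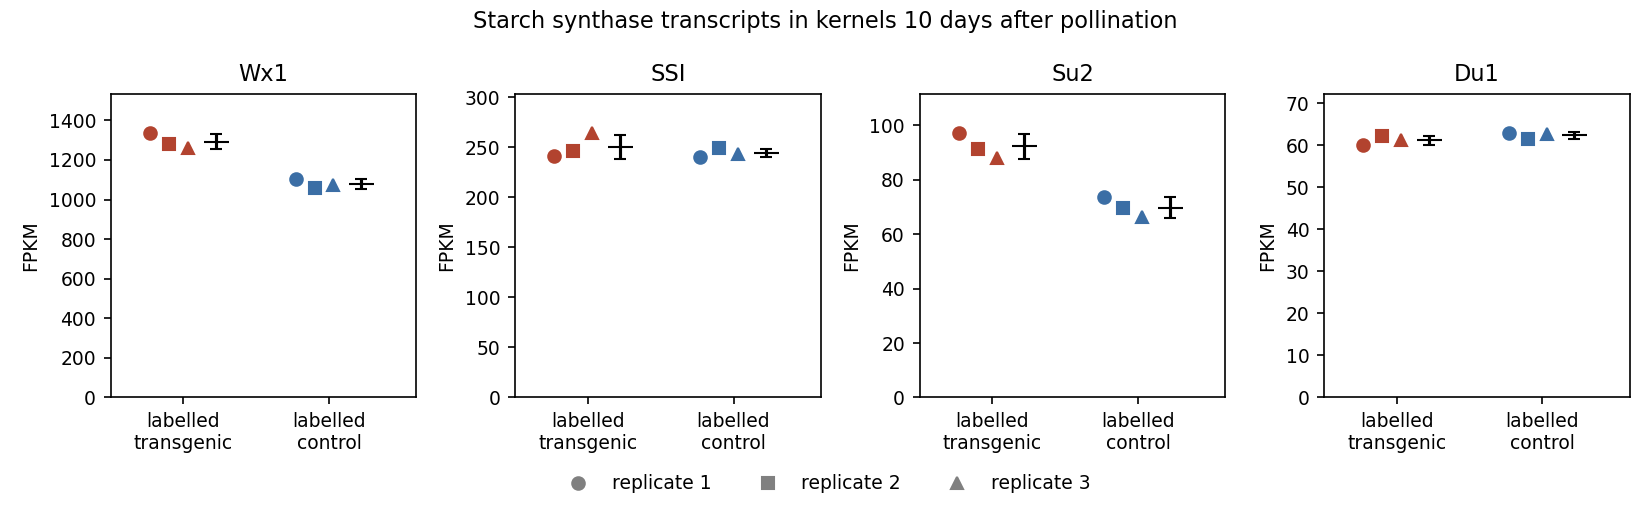
FPKM of Wx1, SSI, Su2 and Du1 (y axes from 0, a scale for each gene) in the 3 libraries labelled transgenic (left) and the 3 labelled control (right); symbols mark the replicate number and black bars the mean ± SD. For Wx1 and Su2 every library labelled transgenic lies above every library labelled control, and for SSI and Du1 the groups overlap.

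Wx1, the amylose synthase, had 1336, 1282 and 1262 FPKM in the libraries labelled transgenic, against 1105, 1058 and 1072 FPKM in those labelled control. The groups did not overlap, as in 38.9% of all genes tested (7.36% with the libraries labelled transgenic higher and 31.6% with them lower). The mean was 1293 ± 38.1 FPKM in kernels labelled transgenic and 1078 ± 24.3 FPKM in those labelled control (SD, n = 3 each), which is 19.9% higher. On the log2(FPKM + 1) scale the fold change was 0.26 ± 0.048 (standard error), with a 95% interval of 0.15 to 0.37 (limma, adjusted p = 0.0078). The exact permutation test (2-sided) gave p = 0.1, the smallest that 3 against 3 libraries allow. Taken by replicate number, the level labelled transgenic was 1.21, 1.21 and 1.18 times the level labelled control. Wx1 ranked 58 among all genes by mean FPKM.

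A second ID, Zm00001d033937, had exactly the same FPKM as Wx1 in all 6 libraries. No other member had such a copy. Identical values are what near-identical copies that share fragments would give, and whether the authors' counting divided fragments between the IDs or gave them to both is not stated. The fold change of Wx1 is the same for both IDs, but its level is uncertain by the size of the second one, and every level or ratio below that contains Wx1 carries this limit.

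Su2, whose product is the starch synthase IIa of the endosperm, had 97.2, 91.5 and 88.2 FPKM in the libraries labelled transgenic, against 73.7, 69.5 and 66.2 FPKM in those labelled control. Here too the groups did not overlap. Mean levels were 92.3 ± 4.53 FPKM in kernels labelled transgenic and 69.8 ± 3.77 FPKM in those labelled control (SD, n = 3 each), a level 32.2% higher. The log2 fold change was 0.40 ± 0.063 (standard error), with a 95% interval of 0.25 to 0.54 (limma, adjusted p = 0.0045; exact permutation test, p = 0.1). By replicate number the ratio was 1.32, 1.32 and 1.33, so the spread within a group followed the number. Replicate 3 stood at 0.935 of the mean of replicates 1 and 2 in the group labelled transgenic and at 0.924 in the group labelled control.

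SSI, the soluble synthase of short chains, had 241, 246 and 264 FPKM in the libraries labelled transgenic, against 241, 249 and 243 FPKM in those labelled control. The groups overlapped, and transgenic 3 was the highest library. Means were 250.3 ± 12.2 FPKM in kernels labelled transgenic and 244 ± 4.29 FPKM in those labelled control (SD, n = 3 each). Its log2 fold change was 0.034 ± 0.052 (standard error; limma, adjusted p = 0.68; exact permutation test, p = 0.6). Its 95% interval ran from a fold of 0.943 to a fold of 1.11. Without transgenic 3 the log2 fold change was -0.0046, so even its sign rested on that library.

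Du1, whose enzyme makes longer amylopectin chains, had 60.1, 62.1 and 61.1 FPKM in the libraries labelled transgenic, against 62.9, 61.4 and 62.7 FPKM in those labelled control. These values overlapped and were the least spread of the members, with a coefficient of variation of 1.68% in the group labelled transgenic and 1.26% in the group labelled control. Mean levels were 61.1 ± 1.02 FPKM in kernels labelled transgenic and 62.3 ± 0.785 FPKM in those labelled control (SD, n = 3 each). Du1 had a log2 fold change of -0.028 ± 0.050 (standard error), with a 95% interval of -0.14 to 0.088 (limma, adjusted p = 0.73; exact permutation test, p = 0.2). As a fold, this interval ran from 0.905 to 1.06.

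In FPKM, which is per length, the order was Wx1, SSI, Su2 and Du1 in every library. Neighbours in this order did not overlap within either group. The closest pair was Su2 and Du1: Su2 was 1.62, 1.47 and 1.44 times Du1 in the libraries labelled transgenic, against 1.17, 1.13 and 1.06 times in those labelled control. Wx1 was 5.18 ± 0.383 times as high as SSI in kernels labelled transgenic and 4.42 ± 0.171 times in those labelled control (SD, n = 3 each).

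**Figure D2:**
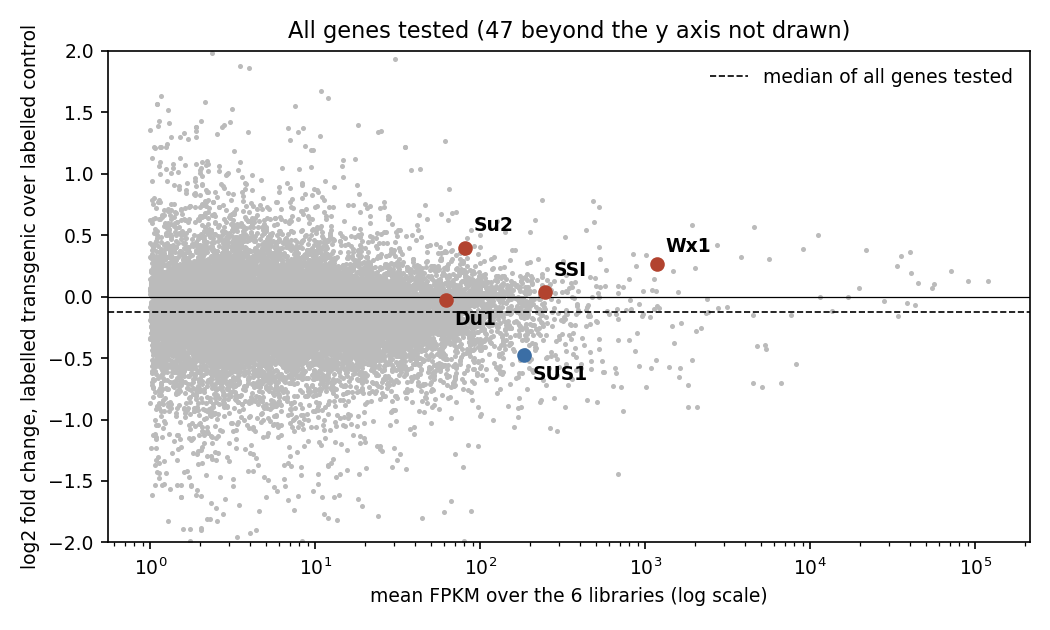
log2 fold change (labelled transgenic over labelled control, y axis) against mean FPKM over the 6 libraries (x axis, log scale) for the genes tested, in grey, with the 4 starch synthases in red and SUS1 in blue; 47 genes beyond a log2 fold change of 2 in either direction are not drawn. The dashed line is the median of all genes tested, -0.13, and all 4 starch synthases lie above it.

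The median gene was lower by 0.13 on the log2 scale in the libraries labelled transgenic, so a gene that kept its FPKM stood above most others. Su2 had a higher log2 fold change than 96.6% of the genes tested, Wx1 than 93.5%, SSI than 76.0% and Du1 than 66.7%. Relative to the median gene, the log2 fold changes were 0.39 for Wx1, 0.16 for SSI, 0.52 for Su2 and 0.098 for Du1. Median-ratio rescaling, which sets the median gene near 0, left the groups of all 4 members without overlap, as it did for 33.9% of all genes tested (16.9% with the libraries labelled transgenic higher). Du1 then had 63.1, 65.2 and 64.6 rescaled FPKM in the libraries labelled transgenic, against 58.9, 58.1 and 60.7 in those labelled control. SSI had 253, 258 and 279 rescaled FPKM in the libraries labelled transgenic, against 226, 236 and 235 in those labelled control. Neither passed on this scale: the log2 fold change was 0.18 for SSI (limma, adjusted p = 0.059) and 0.12 for Du1 (limma, adjusted p = 0.17), so the sign of Du1 depends on the scaling. Wx1 and Su2 passed with larger fold changes, 0.41 and 0.54 (limma, adjusted p = 0.000934 and 0.000853), where 6.21% of all genes rose and 13.6% passed in either direction.

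**Figure D3:**
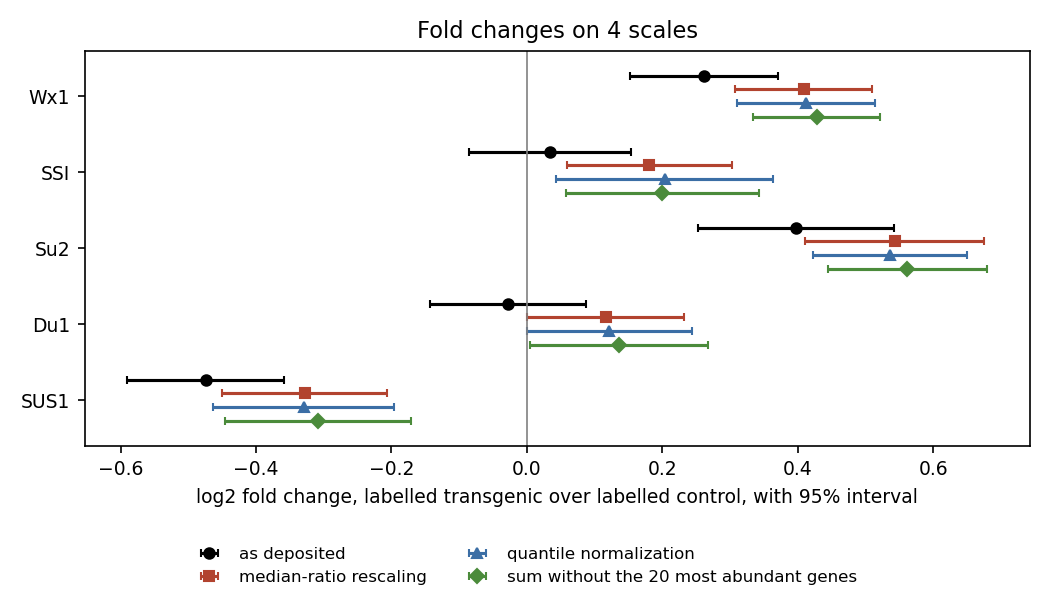
log2 fold change (labelled transgenic over labelled control, x axis) with its 95% interval for the 4 starch synthases and SUS1, on FPKM as deposited and after each of the 3 rescalings. Wx1 and Su2 lie above 0 and SUS1 below 0 on every scale, SSI is closer to 0 as deposited, and Du1 lies below 0 as deposited and above 0 on the other scales.

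The share of very abundant transcripts moved with the labelled groups as well. The 20 most abundant genes, none of them a starch synthase, held 62.9 ± 0.727% of summed FPKM in the libraries labelled transgenic and 58.2 ± 1.21% in those labelled control (SD, n = 3 each). The listed alpha-zein IDs summed to between 345317 and 363804 FPKM in the libraries labelled transgenic, against 319508 to 344275 FPKM in those labelled control. Their part in the levels of the starch synthases was not tested. In whole kernels, fewer cells of a type and less RNA per cell cannot be told apart.

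The amylose to amylopectin synthase balance was taken as Wx1 over the sum of SSI, Su2 and Du1, a ratio of FPKM in which the library total cancels. It was 3.35, 3.21 and 3.05 in the libraries labelled transgenic, against 2.93, 2.79 and 2.88 in those labelled control. The groups did not overlap, and transgenic 3 lay nearest to the libraries labelled control. Means were 3.21 ± 0.151 in kernels labelled transgenic and 2.87 ± 0.0736 in those labelled control (SD, n = 3 each), 1.12 times as high, and the difference of 0.34 exceeded both SDs. As a score over chosen members it was given no test, and no share of non-overlap was computed for such ratios of other genes. With the second ID of identical values added to Wx1, an alternative chosen after seeing the data, the balance was 6.41 ± 0.301 in kernels labelled transgenic and 5.73 ± 0.147 in those labelled control (SD, n = 3 each), again 1.12 times as high.

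The balance differed between the soluble synthases. Against SSI, Wx1 was 5.54, 5.21 and 4.78 times as high in the libraries labelled transgenic, and 4.59, 4.25 and 4.41 times in those labelled control. Against Du1, the ratio was 22.2, 20.6 and 20.7 in the libraries labelled transgenic and 17.6, 17.2 and 17.1 in those labelled control. Against Su2 the order was the other way round: Wx1 was 13.7, 14.0 and 14.3 times as high in the libraries labelled transgenic, and 15.0, 15.2 and 16.2 times in those labelled control. None of these 3 ratios overlapped between the groups, and none was tested. No share of non-overlap was computed for ratios of other genes, and 38.9% of single genes tested already did not overlap. The levels of SSI and Du1 themselves overlapped, so the ratios to them largely restate the higher Wx1.

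**Figure D4:**
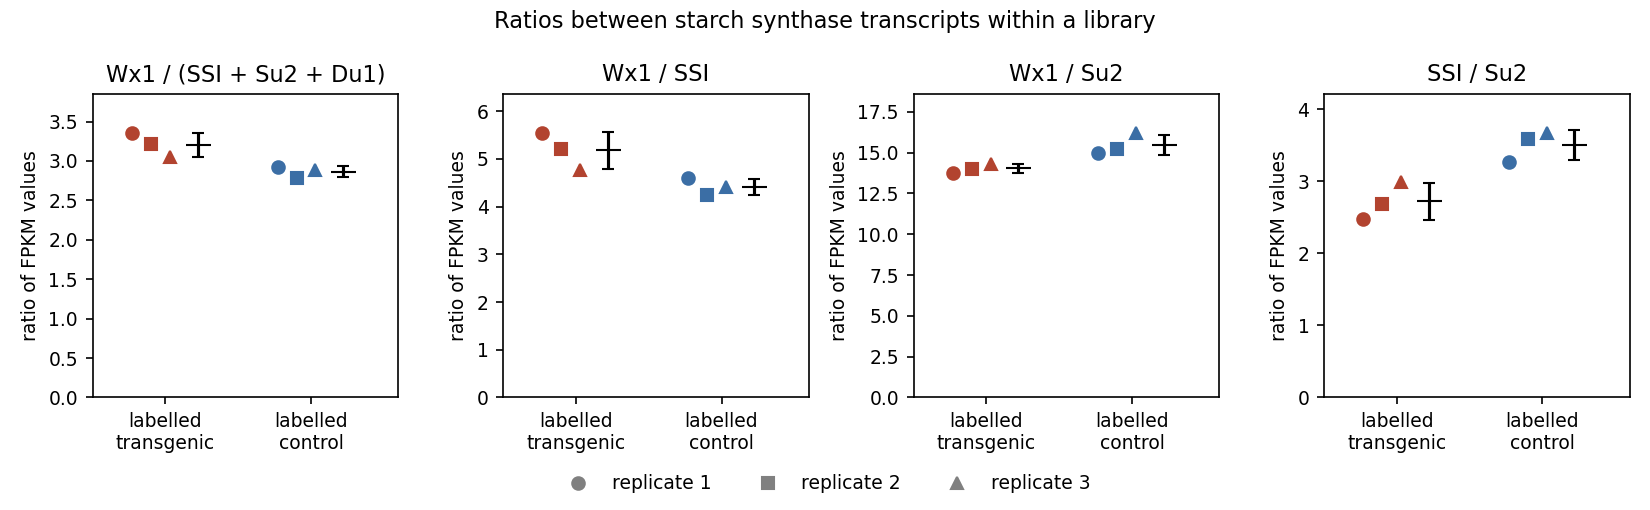
Ratios of FPKM values within a library (y axes from 0) in the 3 libraries labelled transgenic (left) and the 3 labelled control (right), for Wx1 over the other members together, over SSI and over Su2, and for SSI over Su2; symbols mark the replicate number and black bars the mean ± SD. Ratios of Wx1 to the other members together and to SSI are higher in every library labelled transgenic, and those of Wx1 and of SSI to Su2 are lower.

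Within the amylopectin synthases the make-up also differed. Su2 made up 24.4, 22.9 and 21.3% of the summed FPKM of SSI, Su2 and Du1 in the libraries labelled transgenic, against 19.5, 18.3 and 17.8% in those labelled control. Du1 made up 15.1 ± 0.389% in kernels labelled transgenic and 16.6 ± 0.360% in those labelled control (SD, n = 3 each), without overlap. These shares are parts of the same sum, so the higher Su2 lowers the other shares. The FPKM of Du1 itself overlapped between the groups. SSI was the largest part, at 62.0 ± 1.73% in kernels labelled transgenic and 64.9 ± 0.944% in those labelled control (SD, n = 3 each), and its shares overlapped. The ratio of SSI to Du1 overlapped as well, at 4.10 ± 0.197 in kernels labelled transgenic and 3.92 ± 0.119 in those labelled control (SD, n = 3 each).

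Together the 4 transcripts summed to 1734, 1681 and 1675 FPKM in the libraries labelled transgenic, against 1483, 1438 and 1443 FPKM in those labelled control. The sum was 0.124 ± 0.00159% of all FPKM in the libraries labelled transgenic and 0.107 ± 0.00143% in those labelled control (SD, n = 3 each). Of the difference of 242 FPKM between the means, Wx1 made up 88.7%, Su2 9.28% and SSI 2.52%, and the Du1 means differed by -1.22 FPKM. With median-ratio rescaling the summed difference was 403, of which Wx1 made up 83.3%, SSI 7.78%, Su2 7.63% and Du1 1.26%, so the order of SSI and Su2 and the sign of Du1 depend on the scaling. Wx1 made up 76.2 ± 0.855% of the sum in kernels labelled transgenic and 74.1 ± 0.496% in those labelled control (SD, n = 3 each).

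Set against SUS1, each starch synthase transcript was higher in every library labelled transgenic. SUS1 itself was 28.1% lower there, and only 9.74% of the genes tested had a lower log2 fold change than SUS1. Most genes therefore stand higher against SUS1, and these ratios set the starch synthases apart from other genes in no way. Wx1 was 8.37 ± 0.41 times SUS1 in kernels labelled transgenic and 5.01 ± 0.158 times in those labelled control (SD, n = 3 each). The ratio of Su2 to SUS1 was 0.597 ± 0.0399 in kernels labelled transgenic and 0.325 ± 0.023 in those labelled control (SD, n = 3 each). For SSI it was 1.62 ± 0.0557 in kernels labelled transgenic and 1.14 ± 0.0446 in those labelled control (SD, n = 3 each), where SSI itself differed by 2.50% between the means. Du1 stood at 0.396 ± 0.0185 of SUS1 in kernels labelled transgenic and at 0.29 ± 0.00536 in those labelled control (SD, n = 3 each).

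Profiles over the 6 libraries were compared by the root mean square difference of log2(FPKM + 1) values, each gene centred on its own mean, with the 8411 other genes tested at a mean of at least 10 FPKM. The nearest to Wx1 was its identical ID. The nearest to Su2 was Zm00001d045937, at a difference of 0.020 on the log2 scale. This gene ranked 9 among all genes by mean FPKM. It had 47777, 45349 and 42881 FPKM in the libraries labelled transgenic, against 36955, 35438 and 33160 FPKM in those labelled control. The nearest to SSI was Zm00001d053923 (0.019) and the nearest to Du1 was Zm00001d036530 (0.013), which had 90.3, 94.4 and 90.9 FPKM in the libraries labelled transgenic, against 93.1, 92.0 and 95.2 FPKM in those labelled control. The sources used here do not say what these IDs encode. Each was picked as the closest of 8411 genes over only 6 libraries, so the closeness of the match carries no test. Among the members, SSI and Du1 differed by 0.056 and Wx1 and Su2 by 0.077. Of the 8411 genes compared, 298 lay nearer to SSI than Du1 did, and 205 lay nearer to Wx1 than Su2 did. For the other pairs of members, 1133 to 6052 genes lay nearer to the first of the pair. The likeness within SSI and Du1, or within Wx1 and Su2, was thus closer than in the other pairs but shared with many other genes.

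Genes with ID numbers within 5 of a member were looked at beside the rises of Wx1 and Su2. Of the 17 such genes tested over the 4 members, 0 rose (0 also at an unadjusted p under 0.05) and 6 fell (limma, adjusted p under 0.05), 3 of the falls beside Wx1 and 2 beside Su2. Over all genes tested 2.88% rose and 16.2% fell, and the counts over 17 genes are a description with no test.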

How the data were processed

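Per the file headers, the authors deposited FPKM values, 1 table for each library and with 2 decimals. The submitters' processing notes name DESeq2, with no version and no role. The aligner, counter, genome build and annotation were not given in the sources used here, so no coordinates are printed. FPKM is relative to a library total, so genes also move when a few abundant ones take a larger part. Fragment counts are unknown and no counting interval was computed. The most common ratio to control 1 among genes at 1 to 3 FPKM gave relative depths of 1 to 1.02. Values with 2 decimals also match through rounding, so this does not resolve small differences in depth.

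Groups and replicate numbers came from the sample titles. log2(FPKM + 1) of the 20514 genes averaging 1 FPKM or more was compared with limma 3.58.1 in R 4.3.3 (6 libraries, no covariate, variance prior with a mean trend, 2-sided, Benjamini-Hochberg, threshold 0.05), after testing on simulated data. This scale understates fold changes of low genes. Where the labels do not tie libraries to separate plants, p-values measure the spread between these libraries. Single values had an exact permutation test in scipy 1.17.1. Ratios and sums over the members had no test.

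The members, lists and tests were chosen with earlier results of these data known. Named genes were the 4 members, SUS1 and the gene of most like profile for each member. A list of 29 starch pathway symbols and lists for embryo (4), aleurone (5) and basal transfer layer (5) could not be placed: the RefSeq table for Zm-B73-REFERENCE-NAM-5.0 matched 0 of 32852 nuclear IDs. The names of the members and the alpha-zein ID ranges were supplied with their IDs and do not come from the files; the ID of SUS1 is in the series text.

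Across genes, libraries of the same number deviated from their group means together, with correlations of 0.135, 0.122 and 0.325 for numbers 1 to 3. All exceeded 0.1, the threshold set for a sign of pairing, and no label states a pairing. However, transgenic 1 and control 2 also reached 0.105, and transgenic 2 and control 1 reached 0.0847. Deviations within a group cancel out, so a shift shared by replicate 3 alone also raises the values among numbers 1 and 2. Their correlations therefore do not show pairing by number, and only number 3 stands apart. The results printed here are from the unpaired fit, and the fit with a replicate block was run as an alternative.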

Additional observations from a re-analysis of the deposited data

How the results depend on the processing

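Wx1 and Su2 stayed higher and SUS1 lower, all past the threshold, in their 16 alternatives each (log2 fold change 0.24 to 0.43 for Wx1, 0.36 to 0.56 for Su2 and -0.50 to -0.31 for SUS1); the highest adjusted p of Wx1 was 0.048, without a mean trend in the variance prior. With the replicate block the adjusted p was 0.0015 for Wx1, 0.0018 for Su2, 0.58 for SSI and 0.71 for Du1; it changed no call of these genes, and 4469 genes were called over all, against 3907 without it. SSI and Du1 passed in none of 16 alternatives. SSI turned to -0.0046 without transgenic 3 (range without single libraries -0.0046 to 0.061) and to -0.0084 without replicate 3 of both groups. Du1 turned to 0.12 with median-ratio rescaling, 0.12 with quantile normalization and 0.14 with FPKM rescaled to the sum over all but the 20 most abundant genes, by rescalings that move the median gene to near 0. Under these 3 rescalings the difference of the summed FPKM of the 4 starch synthases, 242 as deposited, was 403, 413.5 and 424, and the share of calls that were higher went to 45.6%, 48.7% and 50.0%, against 15.1% as deposited. Leaving out single libraries gave 2331 to 3316 calls over all genes, in fits of fewer samples; it was 2470 without transgenic 2, 2331 without control 1 and 2345 without control 2. The difference in the balance was 0.27 to 0.42 over the 11 alternatives that take Wx1 as 1 ID, and that in the Wx1 share of the summed FPKM 1.60 to 2.57 percentage points. With the identical ID added to Wx1, chosen after seeing the data, these differences were 0.679 and 1.35, and that of the sum 457. Depth is unknown, so small differences of SSI and Du1 have only the limma interval as a bound, and it holds within a scaling. As deposited, this interval was -0.085 to 0.15 for SSI and -0.14 to 0.088 for Du1. The estimates after the 3 rescalings lay above it, at 0.18, 0.20 and 0.20 for SSI and 0.12, 0.12 and 0.14 for Du1. With median-ratio rescaling the interval was 0.059 to 0.30 for SSI and 0.00083 to 0.23 for Du1. With quantile normalization it was 0.044 to 0.36 for SSI and -0.00035 to 0.24 for Du1. In the last of the rescalings it was 0.058 to 0.34 for SSI and 0.0043 to 0.27 for Du1. SSI thus lay above 0 in each rescaling, by intervals not adjusted over all genes, and neither gene passed after adjustment. The interval as deposited therefore does not bound these differences across scalings.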
